A study of Mus musculus with 8 samples.

Results

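Noncoding transcripts that host small RNAs or act in the nucleus were described in blood stem cells of mouse fetal liver. The 7 transcripts chosen by name were Mir99ahg, Malat1, Neat1, Gas5, Snhg1, Snhg3 and Mir17hg, and each of their probe sets with 1 annotated gene symbol was taken. This gave 21 of 45037 probe sets and 6 of the 7 transcripts: 2 probe sets for Mir99ahg, 7 for Malat1, 2 for Neat1, 4 for Gas5, 5 for Snhg1 and 1 for Snhg3. Mir17hg had none, because the only probe set that lists it carries a second symbol as well. Of the 21, 20 had a mean log2 signal above 2.72, the median of all probe sets, and entered the fits, and the remaining 1, of Neat1, lay below it.

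The arrays compared Crebbp+/- embryos, which carry 1 mutant copy of the gene for the histone acetyltransferase CBP, with wild-type embryos. Both groups were on a C57BL/6 background and untreated as far as the labels say, aged 14.5 days post coitum in the sample description and 14 in the characteristics. Each genotype was represented by samples 1 and 2, made from 15 combined embryos each and hybridised to 2 arrays apiece, whose values were averaged, so n = 2 per genotype. The cells were sorted as lineage-negative and positive for Sca-1, AA4.1 and high c-Kit. The labels name the allele only as Crebbp+/-, which leaves the kind and place of the mutation unstated. They do not say whether the numbered samples were separate litters. The genotype p-values and SE therefore rest on the spread between these preparations, moderated over all tested probe sets by limma. P-values for sample 2 against sample 1 come from a fit that also holds genotype and leaves 1 residual degree of freedom. Their error reflects how unlike that difference is in the 2 genotypes, moderated over all tested probe sets by limma. Values are deposited log2 signals made with GCRMA, and each difference subtracts the wild-type mean from the Crebbp+/- mean and is given with its standard error (SE) from limma. Mir99ahg was chosen because of its genotype difference, and the other transcripts were named with the genotype results known. Their genotype differences are therefore given as a description, with no test.

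Long noncoding RNAs are transcripts without a protein product, and many stay in the nucleus. Malat1 gathers in nuclear speckles, bodies rich in splicing factors, and Neat1 is the RNA scaffold of paraspeckles. Gas5, Snhg1 and Snhg3 carry small nucleolar RNAs (snoRNAs) in their introns. SnoRNAs guide chemical modification of ribosomal RNA, and the spliced host RNA of Gas5 is degraded during translation by nonsense-mediated decay. Mir99ahg is the host transcript of the miR-99a, let-7c and miR-125b-2 cluster, and miR-125b is known for expanding blood stem cells when overexpressed in mice.

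The microRNAs of the Mir99ahg cluster are shown because they are what this locus is known for. In RefSeq (GRCm38.p6) Mir99ahg spans chr16:77329328-77558428 and is annotated as a long noncoding RNA. Its annotated end lies 40508 bases before the start of the Mir99a hairpin and 87845 bases before that of Mir125b-2, so in that annotation the hairpins are downstream of the gene and not inside it. Crebbp lies on the same chromosome, at chr16:4081334-4213957. The mature sequences on the plus strand, 5′ to 3′, with the seed (bases 2 to 8) in capitals, are as follows.
miR-99a-5p, chr16:77598940-77598961: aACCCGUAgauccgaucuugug
let-7c-5p, chr16:77599672-77599693: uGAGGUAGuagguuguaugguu
miR-125b-5p, chr16:77646279-77646300: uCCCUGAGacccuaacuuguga
The 3 seeds differ from each other. In the RefSeq table the seed of miR-99a-5p occurs in 3 mature microRNAs, itself included, that of let-7c-5p in 11 and that of miR-125b-5p in 5. The mature let-7c-5p is also encoded by Mirlet7c-2 and miR-125b-5p also by Mir125b-1, at other places in the genome. The probe sets measured long transcripts, and no value here is a level of a mature microRNA.

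The labelled cell type was checked against its markers. Of 10 stem cell markers 8 had a probe set with 1 symbol, and all 8 were above the filter, and their mean log2 signals averaged 0.32 lower in Crebbp+/- (samples 1 and 2 at 10.005 and 9.67) than in wild type (10.32 and 10.001). The 8 were split: Meis1, Procr, Hlf and Mecom differed by -1.26, -0.81, -0.54 and -0.38, and Kit, Cd93, Cd34 and Gata2 by 0.12, 0.004, 0.07 and 0.20. Sca-1, by its gene symbol Ly6a, was not analysed here. Of 11 lineage markers only 5 had a probe set with 1 symbol, and the rest were not checked. Of these 5, Cd3e, Cd8a and Itgam lay below the filter, from 2.21 to 2.42. Cd4 had 5.16 and 5.44 in Crebbp+/- samples and 5.09 and 5.23 in wild-type samples. Ptprc, carried by nearly all blood cells, had 10.81 and 10.79 in Crebbp+/- samples and 10.61 and 10.75 in wild-type samples. Hepatocyte markers ranged widely in wild type, with a mean log2 signal of 5.39 and 5.76 in Crebbp+/- samples 1 and 2 and of 3.02 and 6.49 in wild-type samples 1 and 2. Of the erythroid, macrophage and endothelial markers on the array, 1 of 5, 4 of 7 and 3 of 7 were above the filter. The means of these lists differed by 0.15, 0.05 and -0.09 between genotypes. Whether other cells contribute to a bulk value, or each cell holds more or less RNA, cannot be told apart in these data. The 4 probe sets of Crebbp, the mutated gene, differed by 0.01 (SE 0.49), 0.07 (SE 0.26), -0.42 (SE 0.29) and -0.35 (SE 0.24), none of them called. Whether they lie in a part of the gene that the mutation changes is not known here. Of 22518 probe sets tested between genotypes, limma called 0.0% at an adjusted p under 0.05, with 1089 (4.84%) at an unadjusted p under 0.05. At some member probe sets the arrays of a sample lay far apart, by up to 1.58 at Neat1, so each array is shown.

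Mir99ahg was lower in Crebbp+/- at both of its probe sets. At 1445363_at the 4 Crebbp+/- arrays had log2 signals of 6.85, 6.73, 6.32 and 7.17, against 8.54, 7.91, 8.44 and 8.80 on the wild-type arrays. The genotypes did not overlap. The means were 6.77 ± 0.03 in Crebbp+/- and 8.42 ± 0.28 in wild type (SD, n = 2 each). The difference of -1.65 (SE 0.27) corresponds to 31.8% of the wild-type signal. Set against the sample of the same number, Crebbp+/- differed by -1.44 (number 1) and -1.87 (number 2).

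The second Mir99ahg probe set, 1431424_at, had log2 signals of 2.78, 2.75, 2.85 and 2.32 on the Crebbp+/- arrays and of 4.003, 3.69, 4.03 and 2.93 on the wild-type arrays. These did not overlap either, but the lowest wild-type array was close to the Crebbp+/- arrays. The difference was -0.99 (SE 0.22), and -1.08 and -0.90 within the samples numbered 1 and 2. The Crebbp+/- mean of 2.68 was under the filter of 2.72, so the size of this difference is uncertain. The probe set passed the filter through its wild-type signal (mean 3.66), so its low Crebbp+/- values add no support. All 4 Crebbp+/- arrays lay below all 4 wild-type arrays at both probe sets, against 3.74% of all tested ones. This contrast is the one Mir99ahg was chosen on, so the count is a description only. Of 8 megakaryocyte markers 4 were above the filter, and the mean log2 signal of the 8 was 2.94 and 3.06 in the Crebbp+/- samples and 3.33 and 3.42 in the wild-type samples. Gp9, a platelet glycoprotein, and Vwf, von Willebrand factor, differed by -1.21 and -1.64, while Pf4 and Itga2b differed by -0.17 and -0.03, so Gp9 and Vwf carry the group's mean. Gp1bb, Gp5, Gp6 and Ppbp lay under the filter. Of 6 mast cell markers 2 were above the filter: Cpa3, a mast cell protease, had 5.27 and 5.44 in Crebbp+/- samples and 2.92 and 3.45 in wild-type samples, and Mcpt8 differed by 0.20. Whether megakaryocytes or mast cells were among the sorted cells, and any part of them in the Mir99ahg difference, was not tested.

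Malat1 was lower in Crebbp+/- at all 7 of its probe sets, with log2 differences from -0.98 to -0.52 and a median of -0.67, against a median of 0.02 over all tested probe sets. The 7 probe sets measure 1 transcript and are not replicates. At 1418188_a_at, its brightest probe set, the Crebbp+/- arrays had 11.76, 12.56, 11.97 and 12.10 and the wild-type arrays 12.29, 12.96, 12.46 and 12.76. Here the arrays overlapped, and the arrays of a sample lay up to 0.80 apart, more than the difference of -0.52 (SE 0.11). At 1418189_s_at the Crebbp+/- arrays had 11.16, 11.49, 11.24 and 11.22 and the wild-type arrays 11.99, 12.20, 11.93 and 11.88, with no overlap and a difference of -0.72 (SE 0.14).

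The lowest difference of Malat1 was at 1452378_at, where the Crebbp+/- arrays had log2 signals of 6.92, 6.91, 7.03 and 6.78 and the wild-type arrays 7.79, 7.87, 8.30 and 7.60. All wild-type arrays were higher, and the difference of -0.98 (SE 0.24) corresponds to 50.8% of the wild-type signal. The remaining probe sets, 1427285_s_at, 1429060_at, 1436202_at and 1438403_s_at, differed by -0.89 (SE 0.21), -0.62 (SE 0.19), -0.67 (SE 0.39) and -0.67 (SE 0.29). Over the 7, differences ran from -0.95 to -0.46 between samples 1 and from -1.04 to -0.42 between samples 2. Both Crebbp+/- samples were below both wild-type samples at 6 of 7 probe sets, against 15.4% of all tested ones and 10.6% of the brightest 11259, and above them at 0 of 7, against 15.6%. All 4 Crebbp+/- arrays were below all 4 wild-type arrays at 4 of 7, against 3.74% of all tested ones and 3.27% of the brightest, and above them at 0 of 7, against 3.24%. The exception by samples was 1436202_at, where sample 2 of Crebbp+/- had 9.88 and sample 1 of wild type 9.79.

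**Figure D1:**
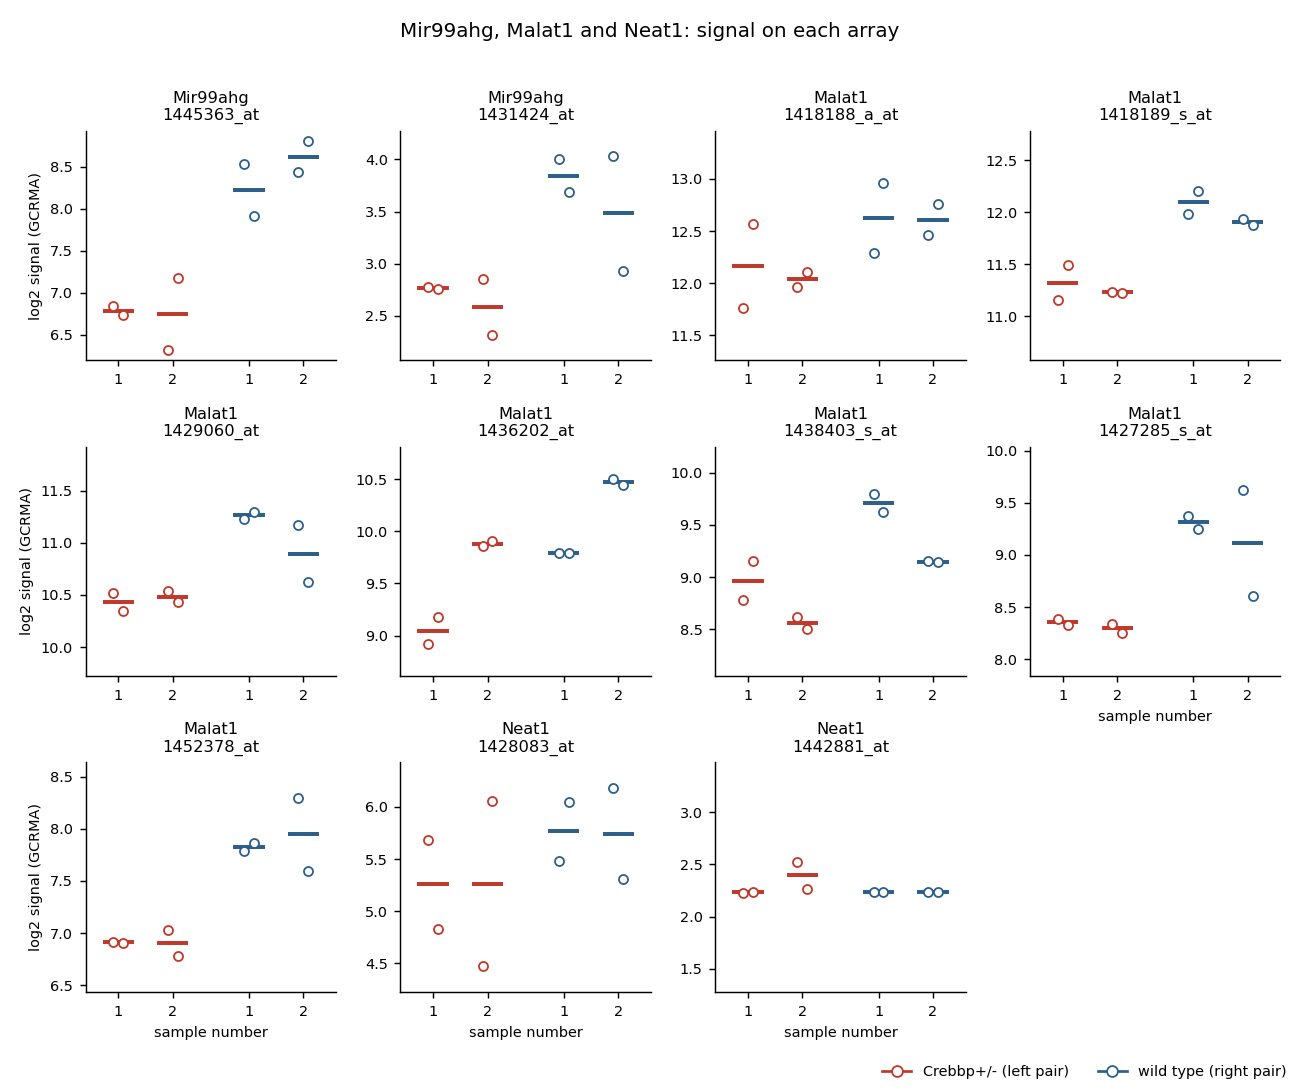
Log2 signal (vertical axis, separate scale in each panel) of the probe sets of Mir99ahg, Malat1 and Neat1 by sample number (horizontal axis), with Crebbp+/- on the left in red and wild type on the right in blue. Circles are single arrays and bars are sample means; at 1452378_at the Crebbp+/- arrays sit between 6.78 and 7.03, all below the wild-type arrays.

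Promoter windows are shown for the members that hold a motif of CREB, the transcription factor that recruits CBP. RefSeq windows (GRCm38.p6) around the annotated start site were found for 6 of the 7 transcripts, Neat1 not among them. Searched on both strands were the full cAMP response element TGACGTCA, the shorter site TGACG, which also occurs inside the full element, and the E-box CACGTG. Capitals mark the full element or the shorter sites.
Malat1, chr19:5802623-5802922, minus strand: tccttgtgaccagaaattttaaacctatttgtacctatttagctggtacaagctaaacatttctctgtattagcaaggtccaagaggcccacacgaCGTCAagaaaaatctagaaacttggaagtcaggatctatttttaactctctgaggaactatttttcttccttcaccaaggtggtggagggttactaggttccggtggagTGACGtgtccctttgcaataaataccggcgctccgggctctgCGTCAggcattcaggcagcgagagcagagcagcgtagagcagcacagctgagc
Gas5, chr1:161034916-161035215, plus strand: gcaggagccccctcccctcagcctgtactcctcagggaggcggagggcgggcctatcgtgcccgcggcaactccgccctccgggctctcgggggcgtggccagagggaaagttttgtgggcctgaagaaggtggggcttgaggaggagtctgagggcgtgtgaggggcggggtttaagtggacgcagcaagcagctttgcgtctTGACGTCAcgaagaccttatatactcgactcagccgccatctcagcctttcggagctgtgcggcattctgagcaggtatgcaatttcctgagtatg
The Malat1 window holds 3 of the shorter sites, at positions -154, -45 and -3 from the annotated start, and no full element. Of all 32851 promoter windows 20.8% hold the shorter site. The second of the Gas5 windows holds the full element, at position -46, which 1.79% of all windows do. Windows of Mir99ahg, Snhg1, Snhg3, Mir17hg and the first of Gas5 hold neither, and none of the member windows holds the E-box, found in 7.15% of all windows. A match is a description of the letters and not evidence of binding.

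Neat1 could be followed at 1 of its 2 probe sets. In RefSeq it lies 22036 bases from Malat1 on chromosome 19. At 1428083_at the Crebbp+/- arrays had log2 signals of 5.69, 4.83, 4.47 and 6.06 and the wild-type arrays 5.49, 6.04, 6.18 and 5.31. The genotypes overlapped, and arrays of a sample lay up to 1.58 apart. Averaged over arrays the samples were close to each other, at 5.26 ± 0.01 in Crebbp+/- and 5.75 ± 0.02 in wild type (SD, n = 2 each). The difference of -0.49 (SE 0.27, 95% confidence interval -1.19 to 0.20) was smaller than the gap between arrays. Single arrays decided its size: it was -0.10 without array 1 of Crebbp+/- sample 2 and -0.89 without array 2 of that sample. The other probe set, 1442881_at, lay between 2.23 and 2.53 on all arrays, below the filter.

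The snoRNA hosts Gas5, Snhg1 and Snhg3 had genotype differences between -0.23 and 0.13 at their 10 probe sets, 5 negative and 5 positive. Gas5 at 1419291_x_at had 12.94, 12.90, 12.90 and 12.85 on the Crebbp+/- arrays and 13.02, 12.98, 12.76 and 12.94 on the wild-type arrays, which overlapped. Its difference was -0.03 (SE 0.11, interval -0.31 to 0.26). The other Gas5 probe sets differed by 0.01, -0.08 and 0.13, the last, 1424843_a_at, with the widest interval of -1.44 to 1.70.

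Snhg1 differed by 0.02, 0.09, -0.12, -0.23 and -0.20 at 1433674_a_at, 1433675_at, 1437658_a_at, 1439399_a_at and 1454703_x_at. Only at 1454703_x_at did the genotypes not overlap, although the nearest arrays were close. There the Crebbp+/- arrays had 9.61, 9.76, 9.68 and 9.61 and the wild-type arrays 9.78, 9.80, 9.95 and 9.92. Of all tested probe sets, 3.74% had all 4 Crebbp+/- arrays below all 4 wild-type arrays, and 3.24% had them above. The intervals of the 5 Snhg1 probe sets together ran from -0.83 to 0.67. Snhg3 had 6.47, 6.22, 6.57 and 6.36 on the Crebbp+/- arrays and 6.64, 5.46, 6.08 and 6.92 on the wild-type arrays, which enclosed the Crebbp+/- values. Its difference was 0.13 (SE 0.30, interval -0.67 to 0.92).

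**Figure D2:**
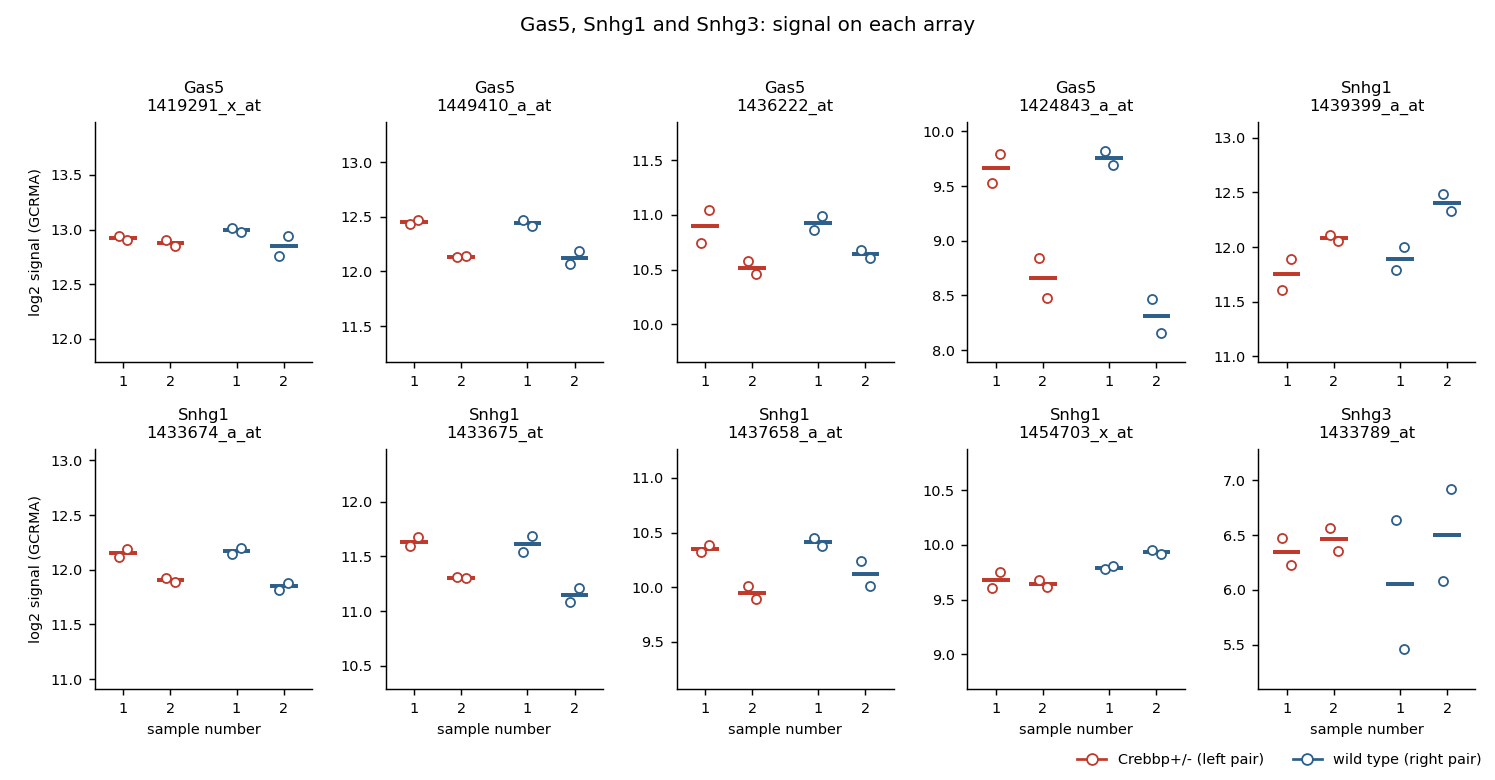
Log2 signal (vertical axis, separate scale in each panel) of the probe sets of Gas5, Snhg1 and Snhg3 by sample number (horizontal axis), with Crebbp+/- on the left in red and wild type on the right in blue. Circles are single arrays and bars are sample means; at Gas5 1424843_a_at both genotypes are lower in sample 2, with differences of -1.004 in Crebbp+/- and -1.44 in wild type.

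Probe sets with no listed gene symbol and control probe sets were set beside Malat1 and Mir99ahg. Among all 22518 tested probe sets, those without a symbol included, limma called 0 between genotypes. Of 2902 tested probe sets with no listed symbol, 12.0% had all 4 Crebbp+/- arrays below all 4 wild-type arrays, against 2.52% of 19054 probe sets with 1 symbol. The reverse held for 1.31% and 3.55% of these, and the median differences were -0.24 and 0.04. The 3 control probe sets for 18S ribosomal RNA differed by -1.16, -0.78 and -0.53, and wild-type sample 2 was the highest sample at each. In Crebbp+/- samples 1 and 2 they had 6.001 and 6.47, 5.63 and 5.44, and 12.045 and 12.25. In wild-type samples 1 and 2 they had 6.53 and 8.26, 5.93 and 6.71, and 12.42 and 12.93. The control for the B1 repeat differed by -0.41, while those for B2 repeats differed by -0.02 and -0.25. Among Gapdh controls the 5′ minus 3′ log2 signal was -0.89 and -1.88 in Crebbp+/- samples 1 and 2 and -1.22 and -2.59 in wild-type samples 1 and 2. The part of these in the Malat1 and Mir99ahg differences was not tested.

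The sample number, on which the transcripts were not chosen, was compared as well. Between sample 2 and sample 1, limma called 9.81% of 22518 probe sets at an adjusted p under 0.05, and 15.8% of the brightest 11259. Of the 20 member probe sets 5 were called, 3 lower in sample 2 (6.66% of all tested) and 2 higher (3.15%). Of these 5, 4 belong to snoRNA hosts, 2 to Gas5 and 2 to Snhg1, and the snoRNA hosts hold 10 of the 20. Probe sets of 1 transcript are not replicates. Gas5 at 1424843_a_at was 2.34-fold lower in sample 2, with sample means of 8.66 in Crebbp+/- and 8.31 in wild type, against 9.66 and 9.76 in sample 1. This was a log2 difference of -1.22 (SE 0.16, adjusted p = 0.018 in limma), and it was -1.004 within Crebbp+/- and -1.44 within wild type. Gas5 at 1449410_a_at differed by -0.32 (SE 0.07, limma adjusted p = 0.044). The other Gas5 probe sets were not called. The brightest, 1419291_x_at, differed by -0.10 (SE 0.07, limma adjusted p = 0.39) and 1436222_at by -0.33 (SE 0.10, limma adjusted p = 0.083). The genotype SE at 1449410_a_at was 0.18 in the fit without the sample number and 0.07 with it as a replicate block.

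Probe sets of the same transcript went opposite ways between sample numbers. Snhg1 at 1433675_at was lower in sample 2 by -0.40 (SE 0.09, limma adjusted p = 0.043), while 1439399_a_at was higher by 0.42 (SE 0.08, limma adjusted p = 0.033). At 1439399_a_at the sample 2 means were 12.08 in Crebbp+/- and 12.41 in wild type, against 11.75 and 11.89 in sample 1. Snhg1 at 1433674_a_at, 1437658_a_at and 1454703_x_at differed by -0.29, -0.35 and 0.05, not called (limma adjusted p = 0.067, 0.097 and 0.82). Snhg3 differed by 0.28 (SE 0.25), not called either (limma adjusted p = 0.50). Malat1 at 1436202_at was higher in sample 2 by 0.76 (SE 0.12, limma adjusted p = 0.022), and 1438403_s_at had a difference of -0.49 (SE 0.14) that was not called (limma adjusted p = 0.076). Across the 8 arrays the 10 pairs of Snhg1 probe sets correlated between -0.83 and 0.98, and the 21 pairs of Malat1 probe sets between 0.12 and 0.96. These are descriptions over 4 samples with 2 arrays each. Mir99ahg differed by 0.18 (SE 0.21) and -0.27 (SE 0.23), not called (limma adjusted p = 0.62 and 0.48). These calls depended on single arrays: without wild-type sample 1 array 2 or wild-type sample 2 array 1 none of the 22518 was called, and without Crebbp+/- sample 2 array 2 or wild-type sample 2 array 2 the counts were 532 and 418. Of the 5 member calls 0 were left in each of the fits without wild-type sample 1 array 2, wild-type sample 2 array 1 or Crebbp+/- sample 2 array 2, and 1 without wild-type sample 2 array 2. The Gapdh 5′ minus 3′ signal above was lower in sample 2 of both genotypes, and its part in these differences was not tested.

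**Figure D3:**
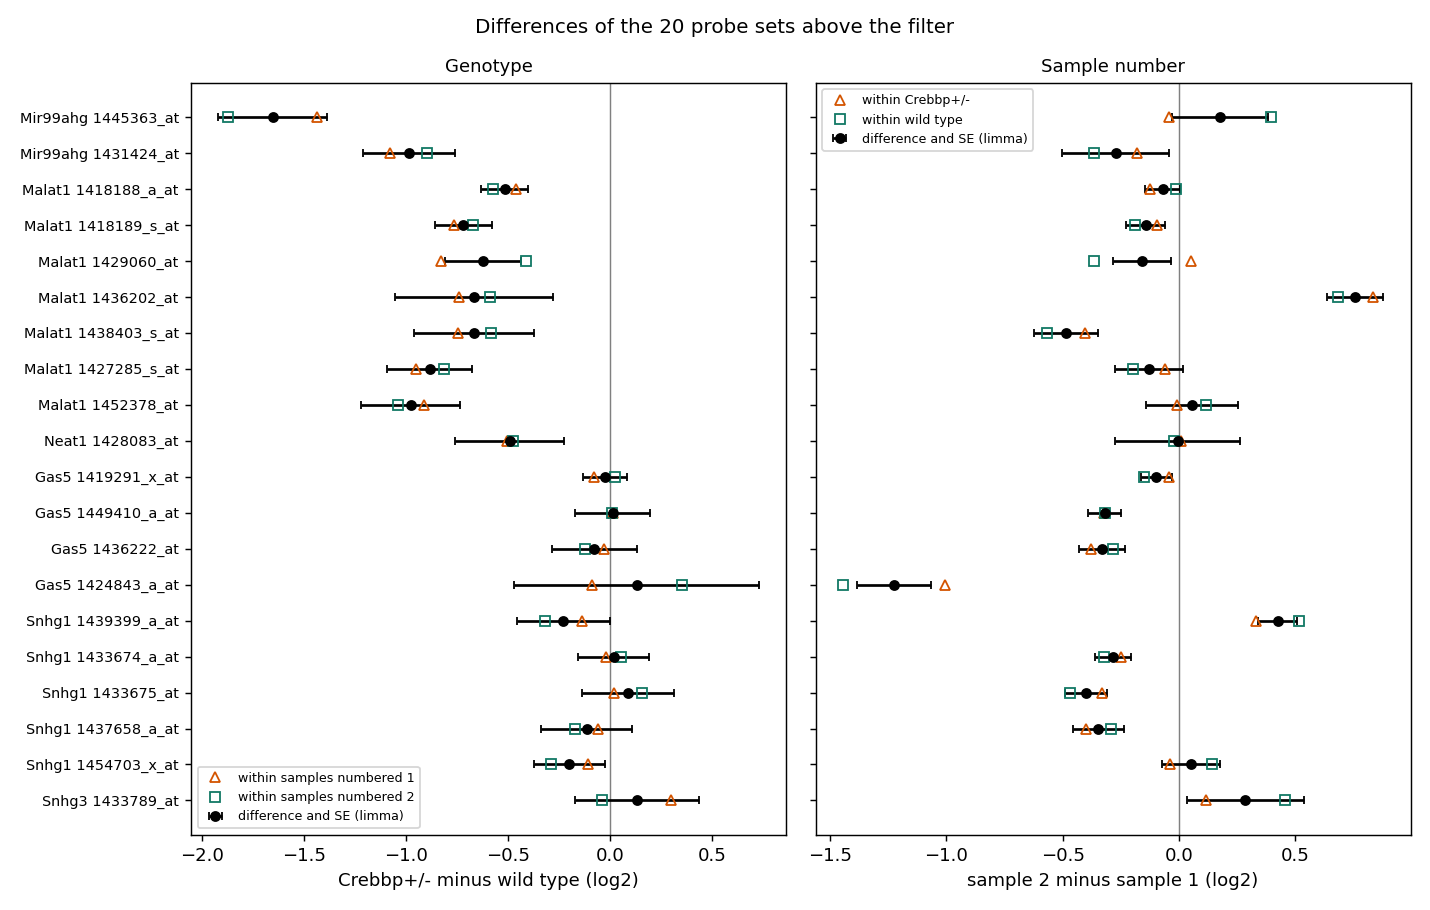
Log2 differences (horizontal axes) of the 20 probe sets above the filter (vertical axis), Crebbp+/- minus wild type on the left and sample 2 minus sample 1 on the right. Black points with bars are limma differences with their SE, and triangles and squares are the values within each sample number or genotype; all Mir99ahg, Malat1 and Neat1 points on the left are below 0, while on the right Gas5 1424843_a_at lies at -1.22 and Malat1 1436202_at at 0.76.

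Further noncoding RNAs were read from lists, by the brightest probe set of each gene. None of them passed the genotype test in either direction, and neither did any other of the 22518 tested probe sets. Of 10 tested long noncoding transcripts, Malat1 and Neat1 included, 8 had a negative difference and the median was -0.41, against 43.1% negative and a median of 0.04 over 10600 genes. Without Malat1 and Neat1, which were chosen with these values known, 6 of 8 were negative and the median was -0.21. Kcnq1ot1, the antisense RNA of an imprinted gene cluster, had sample means of 8.65 and 8.75 in Crebbp+/- and 9.73 and 9.67 in wild type, a difference of -1.003 (SE 0.19). Xist, the RNA that coats the inactive X chromosome, had 11.45 and 11.47 in Crebbp+/- and 11.78 and 11.79 in wild type, a difference of -0.33 (SE 0.12). The sexes of the combined embryos are not in the labels. Meg3, an imprinted noncoding RNA singled out after its values were seen, differed by -1.18 (SE 0.28). Both Crebbp+/- samples were below both wild-type samples for 5 of the 10 genes, or 3 of 8 without Malat1 and Neat1, against 10.95% of all tested genes. They were above them for 1, Norad, at 0.16 (SE 0.18), against 17.1% of all tested genes.

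Noncoding microRNA hosts were few on the array. Of 5 tested, Mir99ahg included, 4 had a negative difference and the median was -0.30. Without Mir99ahg, which was chosen for its difference, 3 of 4 were negative and the median was -0.18, against 43.1% negative over all genes. Rian, the noncoding RNA of the imprinted Dlk1-Dio3 region that hosts snoRNAs, differed by -0.38 (SE 0.27), and Dleu2, host of miR-15a and miR-16-1, by -0.30 (SE 0.40). Pvt1, outside the naming rule, was the only positive one, at 0.81 (SE 0.78), with 0.13 between samples 1 and 1.502 between samples 2. Of 31 tested protein-coding hosts 18 had a positive and 13 a negative difference, with a median of 0.04. Egfl7, host of miR-126 in blood stem and endothelial cells, differed by -0.34 (SE 0.16), and Mcm7, a replicative helicase subunit that hosts the miR-106b cluster, by 0.17 (SE 0.18). Of the 15 tested snoRNA hosts, Gas5, Snhg1 and Snhg3 included, 7 had a positive and 8 a negative difference, with a median of -0.02, and without those 3 there were 6 of each. Snhg10 had the lowest difference, -0.59 (SE 0.27), and Dancr followed at -0.35 (SE 0.27), while Zfas1 differed by -0.02 (SE 0.10).

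**Figure D4:**
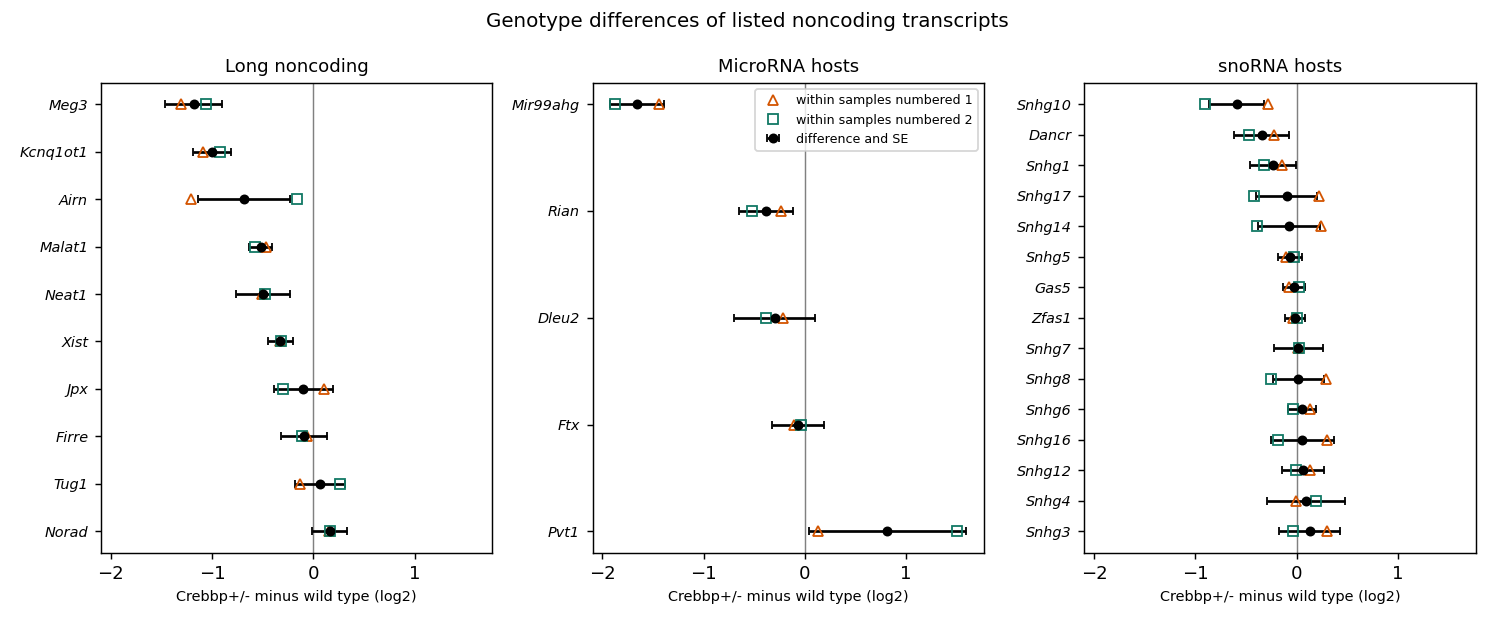
Log2 differences between Crebbp+/- and wild type (horizontal axes) of listed noncoding transcripts (vertical axes) at the brightest probe set of each gene, in 3 panels for long noncoding RNAs, microRNA hosts and snoRNA hosts. Black points with bars are differences with their SE, and triangles and squares are the values within samples numbered 1 and 2; 8 of 10 long noncoding RNAs, Malat1 and Neat1 included, lie below 0, and snoRNA hosts lie between -0.59 and 0.13.

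Proteins that act with these RNAs were listed as well. No member of these lists passed the genotype test, as was so for all 22518 tested probe sets. Among 14 paraspeckle proteins the median difference was -0.06, with Taf15, an RNA-binding protein, at -0.56 (SE 0.32) and Hnrnpk at -0.02 (SE 0.10). Splicing factors of nuclear speckles, 13 in number, had a median of 0.01 and a range from -0.09 to 0.24, with Son, a scaffold of speckles, at 0.24 (SE 0.28). The 13 genes of snoRNA-protein assembly had a median of 0.08, with Nop56, a core protein of box C/D particles, at -0.06 (SE 0.11). The 9 tested decay factors had a median of -0.01, with Upf1, the helicase of nonsense-mediated decay, at 0.05 (SE 0.10). Among 19 genes of microRNA processing the median was 0.12 and 13 differences were positive. Dicer1, which cuts hairpin precursors, differed by 0.60 (SE 0.41), Drosha, the nuclear enzyme, by -0.10 (SE 0.16), and Tut4, which adds uridines to let-7 precursors, by -0.74 (SE 0.35).

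Known targets of the hosted microRNAs had differences of both signs. None passed the test, and neither did any of the 22518 tested probe sets. Of 11 listed targets of miR-125b, miR-99a or let-7 on the array, 8 were tested. Of these 8, 5 had a positive and 3 a negative difference, with a median of 0.20. Both Crebbp+/- samples were above both wild-type samples for 3 of the 8, Irf4, Mtor and Igf2bp1, against 17.1% of all tested genes, and below them for 0, against 10.95%. Irf4, a transcription factor of lymphocytes, had sample means of 6.74 and 6.17 in Crebbp+/- and 5.04 and 5.31 in wild type, a difference of 1.28 (SE 0.34). Hmga2, a chromatin protein repressed by let-7, differed by 0.27 (SE 0.23). Lin28a, a let-7 antagonist, differed by -0.74 (SE 0.53), and 3 of its 4 sample means lay below the filter. Targets of miR-17-92 had 3 positive and 6 negative differences and a median of -0.10, and Bcl2l11, a pro-apoptotic gene, stood at 1.16 (SE 0.67). The 5 MYC and E2F genes had a median of 0.00, with Mycn at 0.04 (SE 0.30).

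The genes with the most similar signal over the 8 arrays were named for each transcript, among 19054 tested probe sets with 1 symbol. For Mir99ahg at 1445363_at they were Pisd-ps3, Sin3b and Mgst2, with Pearson r of 0.97 for each. For Malat1 at 1418188_a_at they were Arhgef6 (r = 0.97), Eldr (0.95) and Fam199x (0.93), and for Neat1 they were Esam (0.94), Angpt1 (0.93) and Naip6 (0.92). For Gas5 at 1419291_x_at they were Cep164 (0.96), Tgfbr3 (0.95) and Mcu (0.95), for Snhg1 at 1439399_a_at Ppp5c (0.99), Bcap31 (0.98) and Nfkbia (0.98), and for Snhg3 Cnpy4 (0.98), Ruvbl2 (0.96) and Taf10 (0.96). The 8 arrays come from 4 samples, and the labels do not say whether the arrays of a sample share 1 RNA preparation, so these r describe these arrays only.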

How the data were processed

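Total RNA (12 ng per sample) from sorted fetal liver cells was amplified and hybridised to Affymetrix mouse expression arrays, per the labels' protocols. The deposited values are log2 signals made by the authors with GCRMA, as the submitters' processing notes state, without a version. No scanner files were used. Precision is limited by 4 samples, measured on 8 arrays, with array medians between 2.65 and 2.70.

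Probe sets were named through the platform annotation, updated by gene identifier to the GRCm38.p6 gene table: 34741 probe sets had a matching identifier and 0 symbols changed. Of 45037 probe sets that are not controls, 34945 had 1 symbol, 932 several and 9160 none listed. Log2 values were averaged per numbered sample, and the 22518 probe sets above the median of 2.72 were fitted in limma 3.58.1 (R 4.3.3; lmFit, eBayes with trend), for genotype alone and, for the sample number, with genotype in the fit. P-values were adjusted by Benjamini-Hochberg over all tested probe sets, with a threshold of 0.05. With 2 samples against 2 no exact permutation test can pass this threshold. The fits were tested on simulated data. Sequences came from RefSeq tables.

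Named were all member probe sets, in each list any gene past the test (otherwise 2 genes of lowest p) and its 2 brightest, of which the text gives a part, and up to 3 genes of like pattern. Members, lists and tests were chosen with earlier results of these data known. Alternatives covered the filter, the replicate unit, a replicate block, normalization, a floor, the variance model and leaving out each sample and array.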

Additional observations from a re-analysis of the deposited data

Results flagged for a closer look

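Of 42 groups of 4 arrays, 2 for each of the 21 member probe sets, 1 was set apart by a test for a single distant value (Dixon's ratio 0.87, critical value 0.83 for 4 values), where chance gives about 1 in 20. It was Neat1 at 1442881_at, where array 1 of Crebbp+/- sample 2 had a log2 signal of 2.53 and the other Crebbp+/- arrays 2.23, 2.24 and 2.27. All of these lay below the filter of 2.72.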

How the results depend on the processing

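The genotype comparison called 0 probe sets under each alternative except with the 8 arrays taken as independent, which called 1, and 0 in each of the 12 fits without a sample or array. A replicate block for the sample number gave 0 calls of 22518, with 3673 at an unadjusted p under 0.05 against 1089 without the block. Same-numbered samples deviated alike (correlation 0.55), but with 2 pairs and no label for it the numbers were not taken as pairs. Several alternatives change only the error or the probe sets tested and leave each difference as it was; 15 move at least 1 difference. The Malat1 median ran from -0.82 to -0.63, and Mir99ahg at 1445363_at from -1.87 to -1.44, when a sample or array was left out. Single Malat1 probe sets ran from -1.15 to -0.25 and those of Mir99ahg from -1.87 to -0.71, and Neat1 from -0.89 to -0.10; where the arrays of the genotypes do not overlap, leaving out a sample or array cannot turn the sign. Signs of Gas5, Snhg1 and Snhg3 turned in 12 of 60, 9 of 75 and 3 of 15 values under these 15.

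The 2209 calls between sample numbers were 0 with no filter, 0 without the variance trend, 3646 over the upper 25% of probe sets, 4587 with arrays as independent, and 0 to 2425 without 1 array, a choice made after seeing the data. Without arrays 1 and 2 of Crebbp+/- sample 1 in turn they were 1152 and 2425, of Crebbp+/- sample 2 1365 and 532, of wild-type sample 1 1225 and 0, and of wild-type sample 2 0 and 418. The 5 member calls were all present with quantile normalization, over the upper 25% and with arrays as independent. With no filter and without the variance trend 0 of the 5 were called. Without arrays 1 and 2 of Crebbp+/- sample 1 in turn 2 and 4 of the 5 were called, of Crebbp+/- sample 2 2 and 0, of wild-type sample 1 2 and 0, and of wild-type sample 2 0 and 1. Causes of these shifts were not tested. No fit without a whole sample was possible for the sample number, since it leaves no residual degrees of freedom.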

Other observations

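A probe set that carries several symbols names no gene, and 2 such probe sets list a member transcript. Probe set 1428694_at, which lists Mir17hg together with Mir92-1, had log2 signals of 7.76, 8.12, 7.41 and 7.21 on the Crebbp+/- arrays and of 8.14, 8.26, 7.86 and 7.05 on the wild-type arrays. The genotypes overlapped, with a difference of -0.21 (SE 0.39). Between sample numbers its difference was -0.69 (SE 0.18, limma adjusted p = 0.065). Probe set 1455904_at, which lists Gas5 together with Snord47, differed by -0.14 (SE 0.16) between genotypes and by -0.04 (SE 0.12, limma adjusted p = 0.88) between sample numbers.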
